A study of Mus musculus with 18 samples.

Results

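Interferon-stimulated effector genes are the genes through which interferon acts on a cell. Interferons bind receptors whose kinases JAK1 and TYK2 phosphorylate STAT proteins, and a complex that holds STAT2 and IRF9 binds the interferon-stimulated response element (ISRE) of its target genes. The targets encode proteins that bind or cut viral RNA, block virus entry and release, attach the ubiquitin-like ISG15 to other proteins, or damp the signal again. The group described here has 39 members, chosen by gene symbol as interferon-stimulated genes other than nucleic acid sensors, guanylate-binding GTPases and antigen presentation genes. They are 39 of 32765 symbols in the deposited table, and 31 of them passed the filter on low counts, as did 12171 symbols in all.

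Levels were measured by RNA sequencing in PyMT-BO1 cells, a luminal B-like breast cancer line of C57BL/6 mice whose integrin β3 gene had been knocked out. The knockout cells were rescued by retrovirus as 3 lines: hβ3 carried functional human integrin β3, Δβ3 a mutant integrin β3 deficient in signalling, and pMx the empty vector. Each line received 10 nM docetaxel, a drug that stabilises microtubules, or its vehicle DMSO for 24 h. Every one of the 6 groups (hβ3 docetaxel, hβ3 DMSO, Δβ3 docetaxel, Δβ3 DMSO, pMx docetaxel and pMx DMSO) had 3 biological replicate cultures, and all 6 carry the knockout. There is 1 line per construct, and a difference between lines includes everything that sets those lines apart.

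Total counts per library lay between 7972612 and 18961392. Luminal epithelial markers summed to 1978 to 3412 CPM (counts per 1000000 after TMM scaling of each library) in 17 libraries. Nearly all of that sum was the keratin genes Krt8 and Krt18, with 338721 and 256147 counts over 18 libraries. The other 7 of the 9 listed luminal markers had 0 to 276 counts each, among them Epcam with 5, Esr1 with 14 and Elf3 with 0. Where a symbol has several rows in the deposited table, reads shared between rows may be missing. A low count of a marker, luminal or other, therefore does not show that the gene is silent. The list as a whole does not settle whether the cells read as luminal epithelium. The exception in the sum was Δβ3 docetaxel culture 2, with 1189 CPM of luminal markers and 34096 CPM of heart muscle markers. Δβ3 DMSO culture 1 had 4059 CPM of heart muscle markers, and the other 16 libraries had 133 to 1716 CPM. Results are therefore also given for those 16 libraries, in which the biological coefficient of variation was 13.2%, against 36% in all 18. Heart muscle markers differed by line within the 16. They summed to 157 to 1716 CPM in pMx docetaxel and 298 to 1489 CPM in pMx DMSO. In hβ3 the sums were 133 to 531 CPM with docetaxel and 157 to 358 CPM with DMSO. In Δβ3 they were 220 and 309 CPM with docetaxel and 320 and 351 CPM with DMSO. The part of heart transcripts in the line differences was not tested. Leukocytes also express interferon-stimulated genes, and of the 10 leukocyte markers Adgre1 and Siglech had 0 counts in all 18 libraries together, Cd3e had 1 and Ptprc had 3. The summed level of the 10 was 3.76 to 15.1 CPM in the 16 libraries, and the 2 libraries with more heart transcripts had 190 CPM (Δβ3 docetaxel) and 29.9 CPM (Δβ3 DMSO). It lay at 9.68 to 13.6 CPM in hβ3 docetaxel cultures, against 3.76 to 8.05 CPM in hβ3 DMSO cultures. In the Δβ3 libraries among the 16 it was 9.41 and 9.31 CPM with docetaxel, against 5.81 and 5.71 CPM with DMSO. In pMx it was 7.57 to 15.1 CPM with docetaxel, against 5.41 to 14.3 CPM with DMSO, which overlap. Most of the sum was Cd68, a lysosomal glycoprotein abundant in macrophages, and Lyz2, a macrophage lysozyme. Cd68 rose with docetaxel over the 3 lines (log2 change 1.22 ± 0.20, SE, adjusted p = 0.000416 in edgeR's test, and 1.06 ± 0.13 with 16 libraries, adjusted p = 6.79e-07). Lyz2 did not pass in edgeR's test, at 0.73 ± 0.92 with 18 libraries (adjusted p = 0.642) and -0.07 ± 0.54 with 16 (adjusted p = 0.944). The part of these markers in the results was not tested. In such bulk samples, fewer responding cells and less RNA per cell cannot be told apart.

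Most of the tested members were higher with docetaxel. As the mean of the 3 lines, 23 of 31 tested members rose and 0 fell (edgeR quasi-likelihood test, adjusted p under 0.05, 9 against 9 libraries), against 7.85% of all tested genes called higher and 7.64% called lower. The median log2 change of the tested members was 1.30, against 0.06 over all tested genes. With 16 libraries 26 members rose and 0 fell, where 15.7% of all tested genes were called higher. Of the 31, 27 would also have passed the filter in the DMSO libraries alone, and 21 of those 27 rose. Mx1, Parp14 and Uba7 passed only with the docetaxel libraries and Irf9 only with all of them. The 8 members that were not tested were Oas1g, Oas2, Oasl1, Rsad2, Parp9, Trim25, Nmi and Ifi27, which had 0 to 69 counts each over 18 libraries. All 8 have at least 2 rows in the deposited table, and reads shared between rows may be missing, so a low count there does not show that the gene is silent. The 15 members with a single row all passed the filter, with totals of 1077 to 152055 counts, and 13 of them rose.

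**Figure D1:**
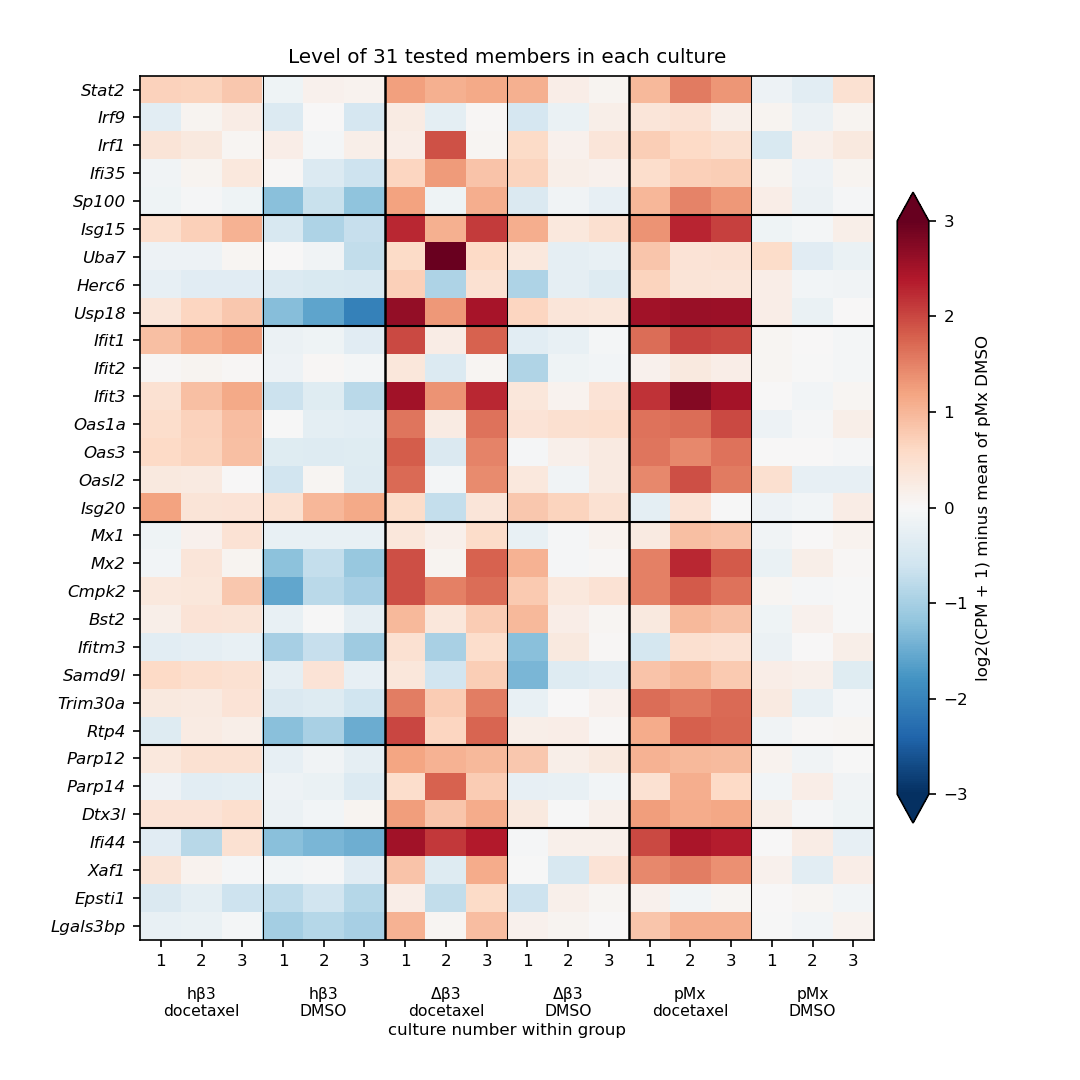
Heat map of the 31 tested members (rows, grouped by role) in each of the 18 cultures (columns), as log2(CPM + 1) minus the mean of the pMx DMSO cultures; red is higher and blue lower. The docetaxel columns of Δβ3 and pMx are the reddest, apart from Δβ3 culture 2, and the hβ3 columns are paler in docetaxel and bluer in DMSO.

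The median of the 31 relative levels in each culture shows the order of the groups. On the log2(CPM + 1) scale relative to pMx DMSO, that median was 0.28, 0.26 and 0.38 in the hβ3 docetaxel cultures, against -0.36, -0.28 and -0.48 in hβ3 DMSO. It was 1.19, 0.24 and 1.10 in Δβ3 docetaxel, against 0.17, 0.10 and 0.13 in Δβ3 DMSO. In pMx docetaxel it was 1.00, 1.10 and 1.16, against 0.02, -0.04 and -0.01 in pMx DMSO. Every docetaxel culture thus lay above every DMSO culture of its own line, and hβ3 with docetaxel lay below pMx with docetaxel in all 3 cultures of each. The low Δβ3 docetaxel value belongs to culture 2, the library with heart muscle transcripts. There 26 of the 31 members were below both other cultures of the group, at a median of 44.7% of their mean, and 4 were above both.

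Promoter sequence bears on whether these genes share the element that the STAT and IRF9 complex binds. RefSeq promoter windows (GRCm38.p6, 250 bases before to 50 after a start site) were found for 31 of the 39 members; those of Usp18, Oas2, Mx1, Mx2, Parp9, Parp14, Ifi27 and Rtp4 were not used here. The ISRE core, searched as GAAANNGAAA on both strands, occurred in the windows of 11 of the 31 members, or 35.5%, against 1079 of 27025 genes, or 3.99%. It occurred in 8 of the 18 members that rose and had a window, and in 3 of the 13 that did not rise or were not tested. The gamma-activated site, searched as TTCNNNGAA, occurred in 7 of 31 members, or 22.6%, against 9.55% of all genes. A match is a description of the letters in the window and not evidence of binding. The stretches shown are 1 for each of the 8 members that rose and have the core, each with 25 bases on either side, 5′ to 3′ on the gene's strand, with the core in capitals. Where matches overlap, 1 run of capitals holds several.
Ifit1: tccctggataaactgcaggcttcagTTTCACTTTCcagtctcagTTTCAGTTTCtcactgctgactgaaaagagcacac
Ifit3: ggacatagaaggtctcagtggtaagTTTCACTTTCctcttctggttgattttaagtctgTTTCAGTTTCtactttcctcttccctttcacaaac
Isg15: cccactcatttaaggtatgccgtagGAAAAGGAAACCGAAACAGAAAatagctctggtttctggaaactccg
Oas1a: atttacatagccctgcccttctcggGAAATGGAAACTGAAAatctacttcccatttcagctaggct
Oas3: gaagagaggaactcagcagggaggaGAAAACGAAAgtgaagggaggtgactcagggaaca
Stat2: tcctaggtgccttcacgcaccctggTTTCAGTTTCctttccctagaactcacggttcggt
Bst2: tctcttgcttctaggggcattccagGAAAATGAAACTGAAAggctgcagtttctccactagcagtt
Trim30a: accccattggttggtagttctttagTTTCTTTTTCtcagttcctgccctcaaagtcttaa

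These stretches lie at chr19:34640760-34640838 (Ifit1, plus strand), chr19:34583348-34583441 (Ifit3, plus), chr4:156200850-156200921 (Isg15, minus) and chr5:120907505-120907570 (Oas1a, minus). The others lie at chr5:120777700-120777759 (Oas3, minus), chr10:128270251-128270310 (Stat2, plus), chr8:71537562-71537627 (Bst2, minus) and chr7:104465195-104465254 (Trim30a, minus). Trim30a also has a core at chr7:104446114-104446123 in the window of another start site, not shown. Isg15 has 3 overlapping cores in 1 run, and Oas1a and Bst2 have 2. Ifit1 and Ifit3 each have 2 separate cores, both read on the opposite strand. Ifi44, Cmpk2, Lgals3bp and Parp12, which rose in every line, have a window without the core.

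Among the transcription factors and their partners, 5 of 6 listed members were tested and 3 rose (Sp100, Stat2, Ifi35), with a median log2 change of 0.94 over the 5. Stat2, the signal transducer of the type I interferon receptor, has an ISRE core of its own. In hβ3 cultures, Stat2 had 3.71, 3.63 and 4.12 CPM with docetaxel and 1.66, 2.17 and 2.13 CPM with DMSO. In Δβ3 cultures, Stat2 had 5.79, 5.12 and 5.46 CPM with docetaxel and 5.13, 2.33 and 2.07 CPM with DMSO. In pMx cultures, Stat2 had 4.76, 7.57 and 6.27 CPM with docetaxel and 1.64, 1.34 and 3.03 CPM with DMSO. The treated cultures lay above the DMSO cultures in hβ3 and pMx, while in Δβ3 the groups overlapped through DMSO culture 1, and the mean log2 change was 1.12 ± 0.20 (SE, adjusted p = 0.001). For Sp100, a protein of nuclear bodies that restrict viral genomes, hβ3 gave 7.28, 7.76 and 7.31 CPM with docetaxel and 2.77, 4.71 and 2.91 CPM with DMSO. For Sp100, Δβ3 gave 19.8, 7.29 and 18.3 CPM with docetaxel and 5.62, 7.44 and 6.57 CPM with DMSO, and pMx gave 17, 24.4 and 21.1 CPM with docetaxel and 9.34, 7.0 and 7.86 CPM with DMSO. Its log2 change was 1.23 ± 0.18 (adjusted p = 0.000136), and the hβ3 docetaxel cultures lay within the range of the pMx DMSO cultures. Ifi35, a partner of NMI, had 5.24, 6.12 and 7.47 CPM with docetaxel and 5.95, 4.09 and 3.4 CPM with DMSO in hβ3. It had 9.59, 15.5 and 11.3 CPM with docetaxel and 9.77, 6.67 and 6.4 CPM with DMSO in Δβ3, and 8.78, 10.1 and 10.2 CPM with docetaxel and 6.14, 5.09 and 6.12 CPM with DMSO in pMx. Its change was 0.63 ± 0.15 (adjusted p = 0.00675), with overlapping ranges in hβ3 and Δβ3. Irf1, a transcription factor that also answers interferon gamma, had 2.04, 1.85 and 1.43 CPM with docetaxel and 1.66, 1.24 and 1.63 CPM with DMSO in hβ3. In Δβ3 Irf1 had 1.68, 7.75 and 1.43 CPM with docetaxel and 2.47, 1.55 and 1.99 CPM with DMSO, and in pMx 2.85, 2.52 and 2.25 CPM with docetaxel and 0.692, 1.59 and 1.87 CPM with DMSO. Its change of 0.63 ± 0.30 did not pass (adjusted p = 0.177), and the highest value is that of the Δβ3 library with heart transcripts. Irf9 had a log2 change of 0.94 ± 0.53 (adjusted p = 0.263) on 101 counts in all, and it shares exon sequence with Rnf31, which had 15449 counts, so its own level is uncertain.

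In the ISG15 pathway, the modifier and the enzyme that removes it rose, while the enzymes that attach it did not pass. Of 5 listed members 4 were tested and 2 rose. Usp18 (chromosome 6, 121245906 to 121270917, mm10) cleaves ISG15 from proteins and blocks signalling at the interferon receptor. In hβ3 cultures, Usp18 had 14.9, 18.3 and 20.7 CPM with docetaxel and 4.08, 3.16 and 2.06 CPM with DMSO. In Δβ3 cultures, Usp18 had 76.3, 29.6 and 67.9 CPM with docetaxel and 18.4, 14.9 and 14.8 CPM with DMSO. In pMx cultures, Usp18 had 70.3, 73.2 and 72.4 CPM with docetaxel and 13.1, 9.74 and 11.5 CPM with DMSO. The 2 treatments did not overlap in any line, and the hβ3 docetaxel cultures lay below every other docetaxel culture (log2 change 2.35 ± 0.17, adjusted p = 1.39e-07). Isg15 (chromosome 4, 156199424 to 156200818), whose promoter has the run of 3 cores shown above, had 11.5, 13.4 and 17.2 CPM with docetaxel and 5.26, 3.65 and 4.47 CPM with DMSO in hβ3. In Δβ3 Isg15 had 41.1, 17.4 and 36.6 CPM with docetaxel and 17.9, 10 and 11.3 CPM with DMSO, and in pMx 21.5, 42.2 and 35.2 CPM with docetaxel and 7.09, 7.51 and 8.89 CPM with DMSO. It rose by 1.67 ± 0.19 (adjusted p = 1.32e-05), with an overlap in Δβ3, where docetaxel culture 2 had 17.4 CPM and DMSO culture 1 had 17.9 CPM. Herc6, an ISG15 ligase in mouse, had 15.8, 14.9 and 14.8 CPM with docetaxel and 14, 13.7 and 13.3 CPM with DMSO in hβ3. In Δβ3 Herc6 had 31.7, 9.46 and 26.6 CPM with docetaxel and 9.47, 15.7 and 14.3 CPM with DMSO, and in pMx 30.8, 25.3 and 24.7 CPM with docetaxel and 22, 17.8 and 17.5 CPM with DMSO. Its change was 0.48 ± 0.17 (adjusted p = 0.0759) with 18 libraries and 0.54 ± 0.08 (adjusted p = 4.47e-06) with 16, so the call depends on the 2 libraries with heart transcripts. Uba7, the enzyme that activates ISG15, had 0.51, 0.498 and 0.756 CPM with docetaxel and 0.692, 0.557 and 0 CPM with DMSO in hβ3. In Δβ3 Uba7 had 1.5, 12.1 and 1.52 CPM with docetaxel and 1.09, 0.388 and 0.432 CPM with DMSO, and in pMx 2.01, 1.21 and 1.26 CPM with docetaxel and 1.47, 0.318 and 0.451 CPM with DMSO. The value of 12.1 CPM is that of the Δβ3 library set apart, and the change was 1.48 ± 0.53 (adjusted p = 0.0729) with 18 libraries and 1.13 ± 0.39 (adjusted p = 0.0304) with 16.

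Among the genes for RNA binding, oligoadenylate synthesis and RNA cleavage, 7 of 10 were tested and 5 rose. The IFIT proteins bind viral RNA, and their genes lie side by side on chromosome 19, with 7.112 kb between Ifit2 and Ifit3. The OAS enzymes make oligoadenylates that switch on RNase L, and Oas1a, Oas1g, Oas2 and Oas3 lie together on chromosome 5. For Ifit3, hβ3 cultures gave 15.9, 21.9 and 26 CPM with docetaxel and 6.85, 8.61 and 6.1 CPM with DMSO. For Ifit3, Δβ3 gave 69.6, 30.4 and 58.5 CPM with docetaxel and 14.7, 12.2 and 15.4 CPM with DMSO, and pMx gave 54.7, 82.7 and 68.6 CPM with docetaxel and 11.4, 10.7 and 11.9 CPM with DMSO. The treatments did not overlap in any line, and the log2 change was 2.02 ± 0.15 (adjusted p = 2.42e-07). For Ifit1, hβ3 cultures gave 83.5, 98.1 and 105 CPM with docetaxel and 39.4, 40.6 and 34.7 CPM with DMSO. For Ifit1, Δβ3 gave 178, 52 and 153 CPM with docetaxel and 35.7, 38.2 and 42.4 CPM with DMSO, and pMx gave 144, 184 and 179 CPM with docetaxel and 46.2, 44.9 and 42.4 CPM with DMSO. The hβ3 docetaxel cultures lay below every pMx docetaxel culture, while all 9 DMSO cultures lay between 34.7 and 46.2 CPM (mean change 1.66 ± 0.17, adjusted p = 6.68e-06). Ifit2, the neighbour of Ifit3, stood at 0.22 ± 0.11 (adjusted p = 0.205) with 18 libraries and 0.22 ± 0.05 (adjusted p = 0.000951) with 16. For Oas1a, hβ3 cultures gave 4.73, 5.48 and 6.55 CPM with docetaxel and 2.98, 2.29 and 2.2 CPM with DMSO. For Oas1a, Δβ3 gave 11.2, 3.72 and 11.5 CPM with docetaxel and 4.34, 4.57 and 4.67 CPM with DMSO, and pMx gave 11.3, 11.9 and 14.7 CPM with docetaxel and 2.59, 2.93 and 3.54 CPM with DMSO. The Oas1a docetaxel cultures lay above the DMSO cultures in hβ3 and pMx. For Oas3, hβ3 cultures gave 28.6, 30.2 and 35.9 CPM with docetaxel and 14.3, 14 and 14.3 CPM with DMSO. For Oas3, Δβ3 gave 68.3, 13.5 and 53.7 CPM with docetaxel and 18.1, 21 and 22.7 CPM with DMSO, and pMx gave 58.8, 52.4 and 59.3 CPM with docetaxel and 18.9, 18.9 and 18.1 CPM with DMSO. Oas1a changed by 1.40 ± 0.18 and Oas3 by 1.30 ± 0.20, both with Δβ3 docetaxel culture 2 below the Δβ3 DMSO range. Oasl2, a relative of the OAS enzymes, rose by 1.49 ± 0.29 (adjusted p = 0.00181). Isg20, an exonuclease that degrades RNA, was the tested member with a negative mean change, -0.26 ± 0.26 (adjusted p = 0.543). Oas1a and Oas1g, and Ifit3 and its close copy Ifit3b, share sequence, so reads may be split between them and their levels are uncertain to that extent.

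**Figure D2:**
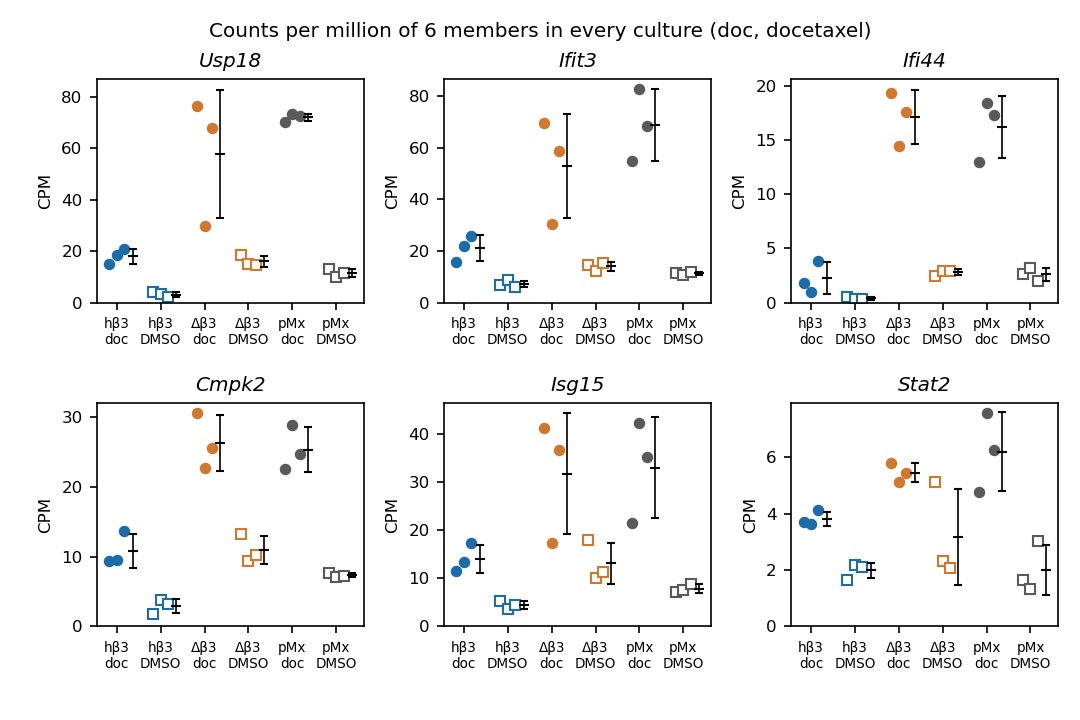
CPM of Usp18, Ifit3, Ifi44, Cmpk2, Isg15 and Stat2 in every culture (points, culture 1 to 3 from left to right; filled with docetaxel, open with DMSO), with mean ± SD (n = 3) beside each group; axes start at 0. In hβ3 the docetaxel points of Usp18 reach 20.7 CPM, against 70.3 to 73.2 CPM in pMx docetaxel, and the low Δβ3 docetaxel point of Usp18, Ifit3 and Isg15 is culture 2.

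Of 9 members listed as direct antiviral effectors 8 were tested and 7 rose, where 7.85% of all tested genes were called higher. The role name labels the list and was not tested for each product. Mx1, among the 7, passed the filter only with the docetaxel libraries, so the filter favoured its rise. Cmpk2 (chromosome 12, 26469204 to 26479837), a mitochondrial nucleotide kinase, lies 12.8 kb from Rsad2, which encodes viperin and had 8 counts in all. For Cmpk2, hβ3 cultures gave 9.4, 9.47 and 13.6 CPM with docetaxel and 1.8, 3.72 and 3.19 CPM with DMSO. For Cmpk2, Δβ3 gave 30.5, 22.6 and 25.5 CPM with docetaxel and 13.2, 9.3 and 10.3 CPM with DMSO, and pMx gave 22.5, 28.8 and 24.6 CPM with docetaxel and 7.61, 7.06 and 7.21 CPM with DMSO. Docetaxel cultures of Cmpk2 lay above DMSO cultures in every line (log2 change 1.65 ± 0.14, adjusted p = 8.44e-07). For Trim30a, a mouse tripartite-motif protein that restrains inflammatory signalling, hβ3 gave 18.6, 18.2 and 20.3 CPM with docetaxel and 10.9, 11.3 and 9.57 CPM with DMSO. For Trim30a, Δβ3 gave 45.1, 26.1 and 45.1 CPM with docetaxel and 12.8, 15.3 and 16.5 CPM with DMSO, and pMx gave 50.4, 46.6 and 51.3 CPM with docetaxel and 18.2, 12.7 and 14.7 CPM with DMSO. Here too no line overlapped (log2 change 1.31 ± 0.12, adjusted p = 1.11e-06). For Rtp4, an interferon-induced receptor transporter protein, hβ3 gave 9.76, 15.7 and 14.9 CPM with docetaxel and 4.91, 6.13 and 3.97 CPM with DMSO. For Rtp4, Δβ3 gave 54.7, 20.8 and 45.7 CPM with docetaxel and 14.7, 15.1 and 13.4 CPM with DMSO, and pMx gave 29.2, 47.5 and 45.5 CPM with docetaxel and 12, 13.4 and 13.7 CPM with DMSO. Its change was 1.52 ± 0.17 (adjusted p = 1.59e-05), and the hβ3 docetaxel range of 9.76 to 15.7 CPM took in the DMSO cultures of Δβ3 and pMx. Mx2, of the dynamin-like GTPase family, is annotated as a polymorphic pseudogene, so its RNA does not show that a functional protein is made. For Mx2, hβ3 gave 1.97, 3.06 and 2.35 CPM with docetaxel and 0.346, 0.929 and 0.425 CPM with DMSO. For Mx2, Δβ3 gave 11, 2.33 and 9.76 CPM with docetaxel and 5.52, 2.09 and 2.25 CPM with DMSO, and pMx gave 8.04, 14.2 and 10.3 CPM with docetaxel and 1.73, 2.55 and 2.25 CPM with DMSO. Mx2 changed by 1.88 ± 0.30 (adjusted p = 0.000322), with an overlap in Δβ3 through the pair of libraries with heart transcripts. Mx1, whose product is not functional in C57BL/6 mice, had 84 counts in all and 0 in hβ3 DMSO, so it was at least 4.51-fold higher in hβ3 docetaxel (12 counts, against a floor of 3 over the group). Samd9l, a growth-restraining antiviral gene, rose by 0.90 ± 0.22 (adjusted p = 0.0106). Bst2, or tetherin, which holds budding virus at the cell surface, rose by 0.50 ± 0.13 (adjusted p = 0.0135). Ifitm3, which blocks virus entry, was not called, at 0.38 ± 0.23 (adjusted p = 0.3).

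All 3 tested ADP-ribosylation genes rose, of 4 listed, where 7.85% of all tested genes were called higher. Parp14 among them passed the filter only with the docetaxel libraries, so the filter favoured a rise of that gene. For Dtx3l, a ubiquitin ligase that works with PARP9, hβ3 gave 49.9, 49.4 and 52.9 CPM with docetaxel and 32.8, 35.1 and 39.5 CPM with DMSO. For Dtx3l, Δβ3 gave 90.1, 66.5 and 81 CPM with docetaxel and 46.1, 37 and 41.3 CPM with DMSO, and pMx gave 89.6, 81 and 84.3 CPM with docetaxel and 41.9, 36.3 and 33.8 CPM with DMSO. Its change was 0.87 ± 0.08 (adjusted p = 1.95e-06) with no overlap in any line. Dtx3l and Parp9 overlap on opposite strands of chromosome 16, and the sources used here give no strand setting for the counting, so their reads cannot be told apart with certainty. For Parp12, a mono-ADP-ribosyltransferase, hβ3 gave 86.5, 95.9 and 94.7 CPM with docetaxel and 58.1, 64 and 57.3 CPM with DMSO. For Parp12, Δβ3 gave 159, 143 and 137 CPM with docetaxel and 122, 78.2 and 84.7 CPM with DMSO, and pMx gave 144, 136 and 134 CPM with docetaxel and 74.3, 64.7 and 68.8 CPM with DMSO. Parp12 changed by 0.75 ± 0.08 (adjusted p = 1.34e-05), again without overlap. For Parp14, a relative of Parp12, hβ3 gave 0.291, 0.142 and 0.168 CPM with docetaxel and 0.277, 0.248 and 0.0709 CPM with DMSO. For Parp14, Δβ3 gave 1.06, 3.88 and 1.43 CPM with docetaxel and 0.197, 0.233 and 0.346 CPM with DMSO, and pMx gave 0.952, 2.05 and 1.17 CPM with docetaxel and 0.346, 0.636 and 0.322 CPM with DMSO. Parp14 rose by 1.53 ± 0.37 (adjusted p = 0.00965) on 159 counts in all, and in hβ3 alone its change was 0.01 ± 0.72.

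Of the 5 other induced genes, 4 were tested and 3 rose. Ifi44 (chromosome 3, 151730922 to 151749960) encodes an interferon-induced cytoplasmic protein with antiviral activity. In hβ3 cultures, Ifi44 had 1.82, 0.996 and 3.86 CPM with docetaxel and 0.484, 0.372 and 0.283 CPM with DMSO. In Δβ3 cultures, Ifi44 had 19.4, 14.4 and 17.6 CPM with docetaxel and 2.47, 2.95 and 2.94 CPM with DMSO. In pMx cultures, Ifi44 had 13, 18.4 and 17.3 CPM with docetaxel and 2.59, 3.18 and 2.0 CPM with DMSO. Its treatments did not overlap in any line (log2 change 2.59 ± 0.22, adjusted p = 6.62e-07). For Lgals3bp, a secreted glycoprotein that binds galectins, hβ3 gave 149, 153 and 168 CPM with docetaxel and 86.2, 96.9 and 86.8 CPM with DMSO. For Lgals3bp, Δβ3 gave 364, 182 and 332 CPM with docetaxel and 192, 187 and 177 CPM with DMSO, and pMx gave 314, 373 and 373 CPM with docetaxel and 174, 165 and 188 CPM with DMSO. It changed by 0.82 ± 0.11 (adjusted p = 4.92e-05), and its Δβ3 ranges overlapped through docetaxel culture 2. For Xaf1, which binds the apoptosis inhibitor XIAP, hβ3 gave 1.24, 0.854 and 0.672 CPM with docetaxel and 0.623, 0.681 and 0.354 CPM with DMSO. For Xaf1, Δβ3 gave 2.12, 0.31 and 2.69 CPM with docetaxel and 0.691, 0.233 and 1.3 CPM with DMSO, and pMx gave 3.7, 4.02 and 3.42 CPM with docetaxel and 0.864, 0.382 and 0.966 CPM with DMSO. Xaf1 rose by 1.44 ± 0.35 (adjusted p = 0.0102), with overlapping ranges in hβ3 and Δβ3. For Epsti1, an interferon-induced gene of epithelial and stromal cells, hβ3 gave 1.38, 1.64 and 1.09 CPM with docetaxel and 0.90, 1.18 and 0.78 CPM with DMSO. For Epsti1, Δβ3 gave 2.68, 0.93 and 3.76 CPM with docetaxel and 1.09, 2.56 and 2.33 CPM with DMSO, and pMx gave 2.54, 2.05 and 2.34 CPM with docetaxel and 2.25, 2.35 and 2.06 CPM with DMSO. Its mean change of 0.30 ± 0.24 did not pass (adjusted p = 0.441). Leaving out any of the 18 libraries in turn ended none of the 23 calls of the mean response.

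Of the interferon pathway genes outside the group, the 6 listed receptor genes were all tested, and in edgeR's test 0 rose and 0 fell in the mean response, with 3 at an unadjusted p under 0.05. With 16 libraries 3 of them rose, where 15.7% of all tested genes were called higher. These were Ifngr2, Ifnar1 and Il10rb, by 0.39 ± 0.06, 0.37 ± 0.06 and 0.41 ± 0.09 on the log2 scale (SE, adjusted p = 7.11e-06, 1.46e-05 and 0.000641 in edgeR's quasi-likelihood test). The receptor kinase gene Tyk2 rose by 1.07 ± 0.22 (adjusted p = 0.00318), on 270 counts in all. The kinase gene Jak1 stood at 0.15 ± 0.06 with 18 libraries (adjusted p = 0.126) and rose by 0.11 ± 0.04 with 16 (adjusted p = 0.0405). Of the other interferon regulatory factor genes 3 of 5 were tested, and of the inhibitor genes 5 of 6, and in edgeR's test 0 of either class rose or fell with 18 or with 16 libraries. At an unadjusted p under 0.05 there were 0 regulatory factor genes in either fit, and 1 inhibitor gene with 18 libraries and 0 with 16. None of the 12 interferon ligand genes was tested, and together they had 55 counts in 18 libraries. Ifnb1, which encodes interferon β, had 27 counts, 14 with docetaxel and 13 with DMSO, so a change of the ligand RNA was not detectable at this depth.

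The single lines differed in how many members passed. In hβ3, 9 of 31 rose and 0 fell, against 0.92% of all tested genes called higher and 0.238% lower. In Δβ3, 13 rose and 0 fell, against 3.33% higher and 3.52% lower. A fit on the Δβ3 libraries alone called 0 of 29 tested members by edgeR, with 15 at an unadjusted p under 0.05. In pMx, 18 rose and 0 fell, against 1.91% higher and 1.69% lower. The median log2 change of the tested members was 0.83 in hβ3, 1.14 in Δβ3 and 1.61 in pMx. With 16 libraries, 18 members rose in hβ3 (7.27% of all tested genes higher), 23 in Δβ3 (5.98%) and 25 in pMx (10.2%). The members that rose in all 3 lines were Cmpk2, Ifi44, Ifit1, Ifit3, Isg15, Lgals3bp, Parp12, Rtp4 and Usp18. These 9 are all of the hβ3 calls, and with 16 libraries 17 rose in all 3 lines. Of these 9, 5 lost their hβ3 call when single libraries were left out: Lgals3bp in 15 of 18 such fits, Ifit1 and Parp12 in 13 each, Isg15 in 5 and Rtp4 in 4. In Δβ3, Lgals3bp lost its call in 14, and Isg15 and Parp12 in 2 each. The count in hβ3 moved to 4 without hβ3 docetaxel culture 2 or 3 or hβ3 DMSO culture 1 or 3, to 5 without hβ3 DMSO culture 2, and to 15 without Δβ3 docetaxel culture 2. The Δβ3 count moved to 20 without Δβ3 docetaxel culture 2. Calls counted per line do not test whether the lines differ.

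**Figure D3:**
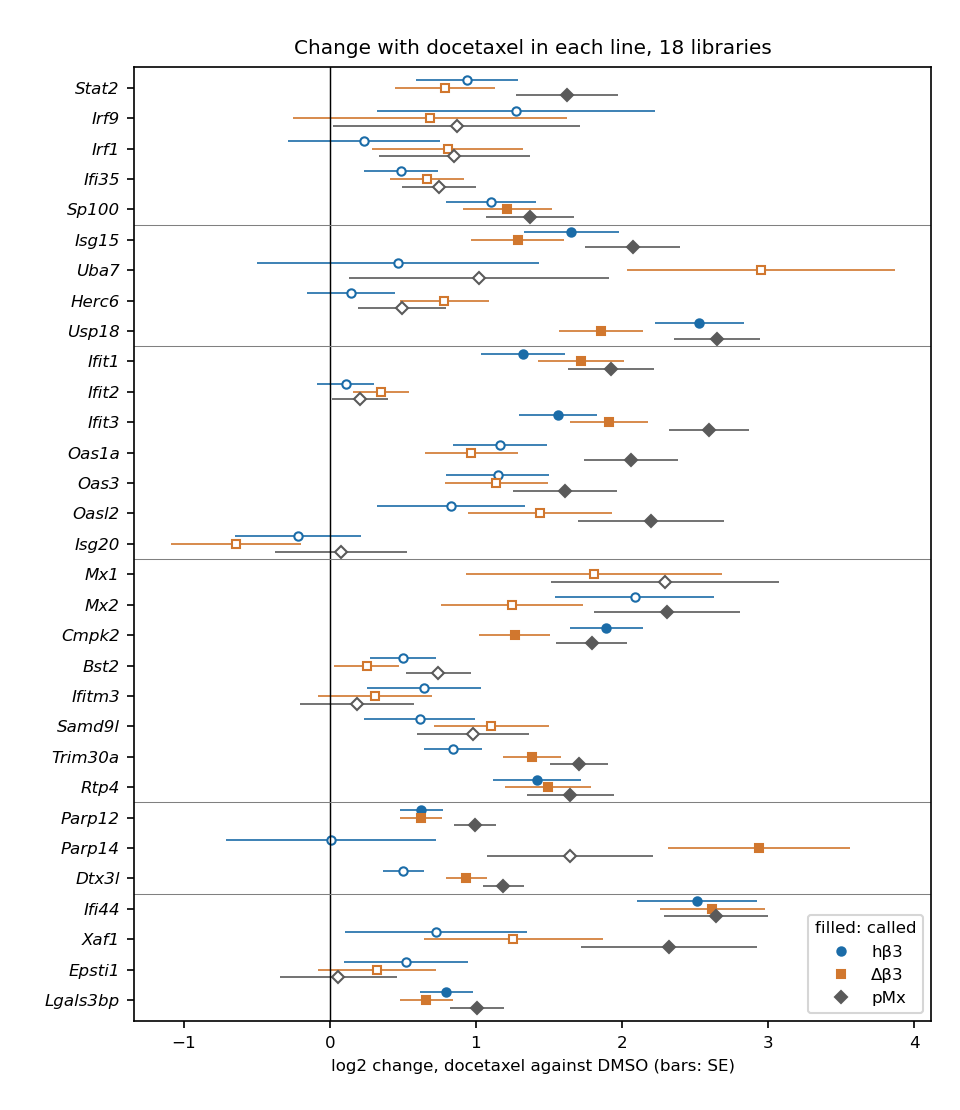
Log2 change with docetaxel against DMSO (horizontal axis, bars are SE) for the 31 tested members in hβ3 (blue circles), Δβ3 (orange squares) and pMx (grey diamonds), 3 against 3 cultures per line; filled symbols were called at an adjusted p under 0.05. Nearly all points lie right of 0, and Mx1 in hβ3 is left out because its DMSO cultures had 0 counts.

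The difference in response between lines was tested directly. With all 18 libraries no member passed in any of the 3 interactions by edgeR or by DESeq2. At an unadjusted p under 0.05, 3 members passed for hβ3 minus pMx, 2 for hβ3 minus Δβ3 and 1 for Δβ3 minus pMx. Over all tested genes 0.00822%, 0.0411% and 0.0% were called in these interactions. The hβ3 minus pMx response of Usp18, for example, was -0.12 ± 0.41 (SE). With 16 libraries, 4 members rose less in hβ3 than in pMx, against 1.05% of all tested genes. They were Trim30a at -0.86 ± 0.17 (adjusted p = 0.00601), Dtx3l at -0.68 ± 0.13 (adjusted p = 0.00638), Ifit1 at -0.60 ± 0.14 (adjusted p = 0.0234) and Ifit3 at -1.03 ± 0.26 (adjusted p = 0.0451). The hβ3 and pMx cultures are the same in both fits, and for Trim30a the 18-library estimate was -0.86 ± 0.28, with the larger SE. Ifit1 also rose less in hβ3 than in Δβ3, with a log2 difference of -0.71 ± 0.16 (adjusted p = 0.036), where 0.307% of all tested genes were called lower. No member differed between Δβ3 and pMx in response with 16 libraries, where 0.0% of all tested genes did. Ifi44, Usp18 and Cmpk2 had similar estimates of the response in hβ3 and pMx, at 2.51 and 2.64 for Ifi44, 2.53 and 2.65 for Usp18, and 1.89 and 1.79 for Cmpk2. With 18 libraries the estimate was smaller in hβ3 than in pMx for 26 of the 31 members (46.7% of all tested genes), in hβ3 than in Δβ3 for 16 (55.5%) and in Δβ3 than in pMx for 24 (44.8%). With 16 libraries these counts were 26 (46.2%), 24 (48.4%) and 20 (46.7%), so a smaller estimate than in pMx was not particular to hβ3. The size differed between the fits. The median difference in response from pMx was -0.35 in hβ3 and -0.32 in Δβ3 with 18 libraries, and -0.34 and -0.08 with 16.

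Many members were lower in the line with functional integrin β3 than in either other line, with and without the drug. In docetaxel, 16 of 31 members were lower in hβ3 than in pMx and 0 were higher, against 3.82% of all tested genes called lower. In DMSO, 7 were lower and 0 higher, against 4.11%. Against Δβ3, 15 members were lower in hβ3 in docetaxel (5.67% of all tested genes) and 9 in DMSO (6.83%), and 0 were higher. With only the hβ3 and Δβ3 docetaxel libraries in the fit, the 15 became 3 of 29 tested. The median log2 difference of the tested members from pMx was -1.17 in docetaxel and -0.56 in DMSO, and from Δβ3 it was -0.90 in docetaxel and -0.68 in DMSO. With 16 libraries, 23 members were lower than in pMx in docetaxel (12.1%) and 16 in DMSO (13.5%). Isg20 was then higher in hβ3, by 0.92 ± 0.33 in docetaxel (15.1% of all tested genes higher) and 1.19 ± 0.32 in DMSO (13.2%). Against Δβ3 the 16-library counts were 22 lower in docetaxel (10.3%) and 16 lower in DMSO (12.2%). Of the 31 tested members, 27 would have passed the filter in the hβ3 libraries alone, and 15 of those 27 were lower than in pMx in docetaxel and 7 in DMSO. Lower than in Δβ3 were 13 of those 27 in docetaxel and 9 in DMSO.

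Ifi44 differed most among the members that passed in both treatments. It differed from pMx by -2.87 ± 0.36 in docetaxel (log2 ± SE, adjusted p = 5.86e-05) and -2.74 ± 0.41 in DMSO (adjusted p = 0.000253). Against Δβ3 the Ifi44 differences were -2.95 ± 0.37 in docetaxel and -2.84 ± 0.41 in DMSO. Usp18 differed from pMx by -2.0 ± 0.29 in docetaxel (adjusted p = 0.000213) and -1.88 ± 0.30 in DMSO (adjusted p = 0.000484). Its differences from Δβ3 were -1.69 ± 0.29 in docetaxel and -2.36 ± 0.30 in DMSO. With docetaxel the hβ3 cultures had 14.9 to 20.7 CPM of Usp18, against 9.74 to 13.1 CPM in pMx DMSO cultures. For Ifi44 they had 0.996 to 3.86 CPM, against 2.0 to 3.18 CPM in pMx DMSO cultures, so these ranges overlapped. Cmpk2, Lgals3bp, Mx2, Rtp4 and Sp100 were likewise lower than in pMx in both treatments, which makes 7 members, all 7 of those called in DMSO and 7 of the 16 called in docetaxel. The other 9 called in docetaxel were Dtx3l, Ifit3, Isg15, Oas1a, Oasl2, Parp12, Parp14, Trim30a and Xaf1. Trim30a stood at -1.38 ± 0.20 in docetaxel (adjusted p = 0.00023) and -0.51 ± 0.20 in DMSO (adjusted p = 0.144). Dtx3l stood at -0.74 ± 0.14 in docetaxel (adjusted p = 0.00233) and -0.06 ± 0.14 in DMSO (adjusted p = 0.888). Lower levels of Uba7 against Δβ3 in docetaxel (-3.04 ± 0.91, adjusted p = 0.0449) rested on Δβ3 culture 2, without which the adjusted p was 0.318. Leaving out hβ3 docetaxel culture 1, 2 or 3 or pMx docetaxel culture 2 moved the docetaxel count against pMx to 10. Leaving out Δβ3 docetaxel culture 2 moved the DMSO counts to 13 against pMx and 16 against Δβ3. Ribosomal RNA precursor took 11.1% to 19.2% of counts in hβ3 docetaxel libraries, against 6.59% to 8.81% in pMx docetaxel. It took 10.9% to 33.0% in hβ3 DMSO libraries, against 8.36% to 9.81% in pMx DMSO. In Δβ3 it took 23.6% in docetaxel culture 2 and 41.5% in DMSO culture 1, against 6.92% to 10.0% in the other 4 libraries. Its part in the differences was not tested.

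**Figure D4:**
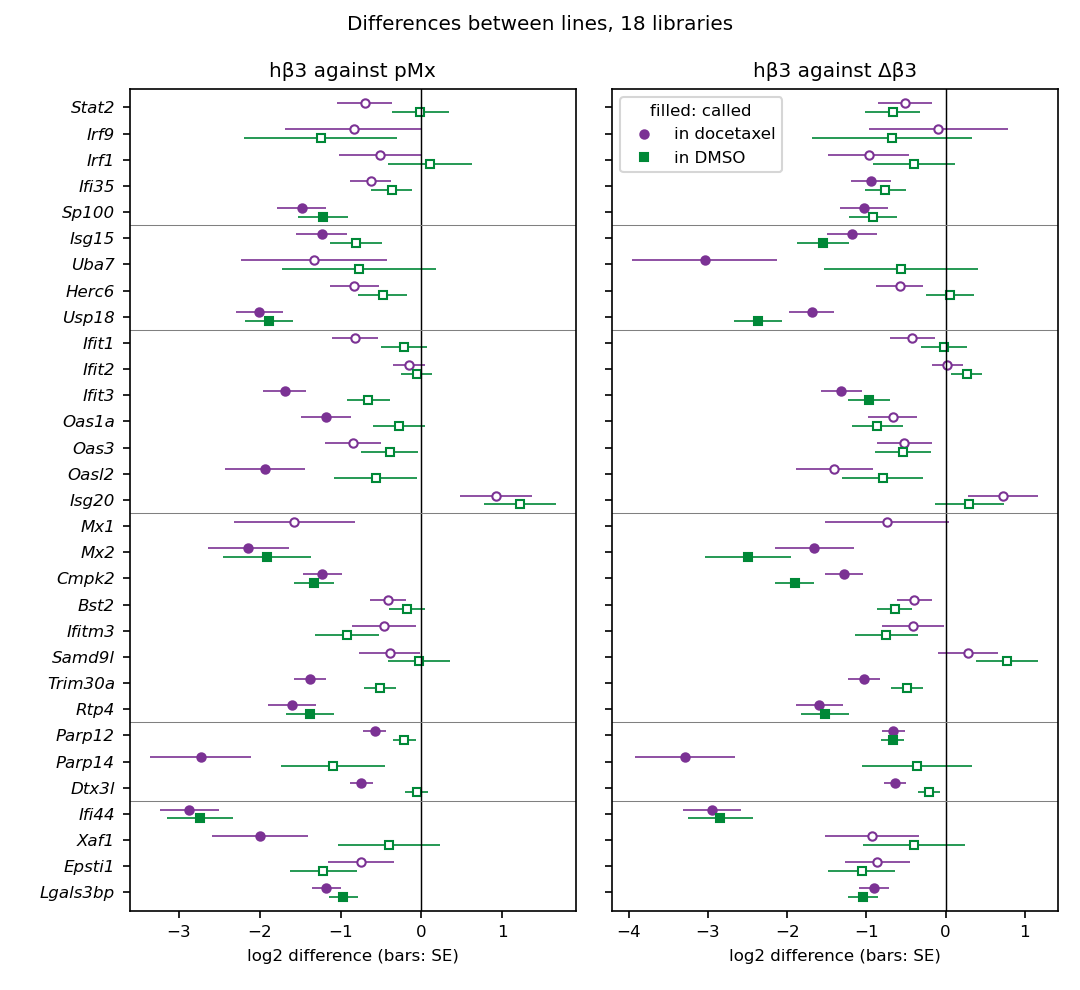
Log2 difference of hβ3 against pMx (left) and against Δβ3 (right) for the 31 tested members, in docetaxel (purple circles) and in DMSO (green squares), with SE bars, 3 against 3 cultures; filled symbols were called. Ifi44 lies between -2.74 and -2.95 in all 4 comparisons, most members lie left of 0, and Mx1 in DMSO is left out because hβ3 had 0 counts.

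The mutant integrin line Δβ3 was also set against the empty vector line pMx. No member was called by edgeR or by DESeq2, in docetaxel (0.0246% of all tested genes called in either direction) or in DMSO (0.0411%). With 16 libraries the member count was also 0 in both treatments, and 0.46% of all tested genes were called in docetaxel and 0.331% in DMSO. At an unadjusted p under 0.05, 0 members passed in docetaxel and 3 in DMSO. With 16 libraries Usp18 differed between Δβ3 and pMx by -0.01 ± 0.15 in docetaxel and 0.37 ± 0.17 in DMSO, and Ifit1 by -0.04 ± 0.11 and -0.15 ± 0.12. Ifi44 differed by 0.18 ± 0.28 in docetaxel and 0.18 ± 0.36 in DMSO. A test that misses its threshold does not show that the lines are alike.

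Basal level and response differed widely among members. Per kilobase of the listed transcript, and among the 15 members with a single row, the pMx DMSO level was 1054 ± 128 CPM per kilobase for Ifitm3 (SD, n = 3), 131 ± 11.6 for Bst2 and 81.0 ± 5.27 for Lgals3bp. At the low end were Mx2, at 0.899 ± 0.171, and Ifi44, at 0.891 ± 0.204. Over the 15 the Spearman correlation of level with mean log2 change was -0.67. The level and the change share the pMx DMSO libraries, and genes are not independent replicates, so this correlation is a description only.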

How the data were processed

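The authors deposited 1 table of raw read counts for all 18 libraries, made with FastQC, HISAT2 and featureCounts on mm10 per the submitters' processing notes. The sources used here give no versions, annotation or strand setting. Its 63759 rows were summed to 32765 symbols, 13159 of which had several rows.

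Tests used R 4.3.3 and edgeR 4.0.16: symbols kept by filterByExpr with the 6 groups, TMM scaling, a robust quasi-likelihood F-test with 1 coefficient per group over all libraries, two-sided, and Benjamini-Hochberg adjustment over all tested symbols, called under 0.05. The method was tested on simulated data. The deposited transcript length in bases, a unit of its own among the authors' columns, served only for levels per kilobase. Alternatives were 16 libraries, RLE factors, no filter, DESeq2 1.42.0, a replicate block, the top row per symbol, only the compared groups, and leaving out each library.

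The members and lists were chosen with earlier results of these data known. Values of every culture are given for up to 4 tested members per role with the smallest p in the mean response, and for members called between lines (up to 4 per comparison). Coordinates are from GENCODE M21. Replicate cultures share 1 line per construct, so p-values measure the spread between cultures. Floors cover counting error only. Some genes of the marker and pathway lists are not reported here by name.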

Additional observations from a re-analysis of the deposited data

Results flagged for a closer look

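The difference in docetaxel response between lines was flagged for 4 members in the fit of 16 libraries, where the test of the difference itself passed. The hβ3 minus pMx response was -0.68 for Dtx3l, -0.60 for Ifit1, -1.03 for Ifit3 and -0.86 for Trim30a on the log2 scale. For Ifit1 the hβ3 minus Δβ3 response was -0.71. None of these 5 differences passed with all 18 libraries.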

How the results depend on the processing

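The mean response had 22 to 26 called members under every alternative that tests it and 23 to 25 when 1 library was left out. With 16 libraries the counts were 18 in hβ3, 23 in Δβ3, 4 for hβ3 minus pMx, 1 for hβ3 minus Δβ3, and 17 against pMx and 16 against Δβ3 for hβ3 in DMSO. With only the compared groups they were 18 in hβ3, 0 in Δβ3, 3 for hβ3 minus pMx, 15 for hβ3 against pMx in DMSO and 3 for hβ3 against Δβ3 in docetaxel. DESeq2 called 15 in hβ3. The labels state no pairing of cultures by replicate number. Of 45 same-numbered pairs 18 had a correlation of deviations over 0.1, with a median of 0.049. The correlations ran from -0.53 to 0.46, which does not settle whether cultures were paired. With the replicate block 5 members were called in hβ3 and 23 in the mean response, and no other count moved by over 1.5 times. RLE factors, no filter and the top row per symbol kept every count within 1.5 times. Leaving out 1 library gave 12 to 22 called members in pMx, 4 to 15 in hβ3, 9 to 20 in Δβ3 and 0 to 0 in the interactions. It gave 5 to 13 for hβ3 against pMx and 8 to 16 against Δβ3 in DMSO, and 10 to 19 in docetaxel against either. In pMx, Oas3, Oasl2, Mx2, Stat2, Sp100 and Xaf1 lost their call without at least 1 library, with adjusted p up to 0.214 for Xaf1 without pMx DMSO culture 2. In hβ3, Lgals3bp, Ifit1, Parp12, Isg15 and Rtp4 did, with adjusted p up to 0.208 for Lgals3bp without hβ3 docetaxel culture 3. In Δβ3, Lgals3bp, Sp100, Isg15 and Parp12 did, with adjusted p up to 0.094. No called member changed direction when 1 library was left out. Irf1 in Δβ3, not called in either fit, stood at 0.81 ± 0.52 with 18 libraries and -0.16 ± 0.40 with 16. Few counts limit Mx1, Irf9, Parp14, Uba7, Tyk2 and the interferon ligands. The causes of these movements were not tested.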

Other observations

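Parp9, the partner of Dtx3l in a ubiquitin ligase complex, was not tested, with 69 counts in all. It stood at 0.634, 0.560 and 0.515 CPM in pMx docetaxel cultures, against 0.0864, 0.255 and 0.129 CPM in pMx DMSO cultures, without overlap. In hβ3 and Δβ3 its docetaxel and DMSO cultures overlapped. Parp9 overlaps Dtx3l, which had 12903 counts, on the opposite strand, so its few reads cannot be told apart from Dtx3l reads with certainty. Oas2, an oligoadenylate synthetase with 22 counts in all, stood at 2.33 CPM in Δβ3 docetaxel culture 2, the library with heart muscle transcripts, and at 0 in the other Δβ3 cultures of both treatments.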
